A study of Mus musculus with 4 samples.

Results

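A set of 40 genes of fatty acid uptake and oxidation was followed in single-nucleus RNA sequencing (snRNA-seq) of neonatal mouse cardiomyocytes. The genes were listed by name, and 40 of 40 were among the 22574 genes of the deposited matrix. They comprise 4 genes of uptake and intracellular transport, 3 of acyl-CoA activation, 4 of the carnitine shuttle, 9 of the β-oxidation spiral and 3 auxiliary enzymes for unsaturated chains. The others are 3 genes of electron transfer, 3 of thioesterases and uncoupling, 3 that act on malonyl-CoA or pyruvate, and 8 regulators.

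The heart obtains most of its energy after birth from fatty acids, whereas the fetal heart relies more on glucose and lactate. Fatty acids enter the cardiomyocyte through CD36 and related transporters, are bound by the heart-type fatty acid binding protein, activated to acyl-CoA and carried into mitochondria by the carnitine shuttle, where repeated rounds of dehydrogenation, hydration, oxidation and thiolysis release acetyl-CoA and pass electrons to the respiratory chain. Transcription of these genes is known to be driven by the nuclear receptors PPARα and the estrogen-related receptors with their PGC-1 coactivators, and this oxidative programme matures in the first weeks of life.

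The study addressed how the transcription factor Nrf1, encoded by Nfe2l1, affects injured neonatal cardiomyocytes. There were 4 libraries, 1 for each combination of genotype and surgery, called WT-Sham, WT-MI, KO-Sham and KO-MI after their labels. All mice carried loxP-flanked Nrf1 alleles (Nrf1 fl/fl) in the C57BL/6 background, and KO mice also carried aMHC-Cre, whose alpha myosin heavy chain promoter is active in cardiomyocytes. WT mice lacked Cre, so the deletion and the presence of Cre cannot be told apart. Myocardial infarction (MI) was induced by tying off the left anterior descending artery (LAD), and Sham mice were operated on without the ligation. Surgery was at postnatal day 3, and tissue was taken 1 day later. Each library pooled tissue below the ligation plane from 4 to 6 hearts of 1 genotype, so the spread between hearts is not seen. With 1 library per group, no difference has a replicate check, no p-value is given, and a difference is one between 2 libraries.

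Levels are unique molecular identifier (UMI) counts, which count captured RNA molecules, summed over the nuclei of 1 population in 1 library and expressed as CPM, counts per 1000000 UMIs of that sum. CPM is a share, so fewer molecules of a gene and more of other RNA cannot be told apart. Ratios are log2 of the CPM of one library over another, with an exact 95% interval in parentheses that covers counting error only, and a ratio is counted as higher or lower when it passes 1.5-fold. The main population is CM1, the deposited label under which the authors merged CM1 and CM3 cardiomyocytes, followed by CM5, which the study describes as injury-induced, CM4, which it describes as regenerative, and the small population CM2. The authors had assigned these labels from the expression of the same nuclei, by clustering on variable genes and by label transfer, and whether the 40 genes took part is not given in the sources used here, so a difference between populations is a description. The targeted gene Nfe2l1 was at 61.4, 44.1, 53.3 and 57.7 CPM in CM1 of WT-Sham, WT-MI, KO-Sham and KO-MI, an order kept for all lists of 4 values. Its log2 ratio of KO over WT was -0.20 (95% interval -0.44 to 0.029) in Sham and 0.39 (95% interval 0.14 to 0.63) in MI, where the library labelled KO-MI went against its label. In CM5 it was -1.14 (-2.02 to -0.28) in Sham, in the direction of the label, and 0.056 (-0.41 to 0.52) in MI. The stretch of Nfe2l1 removed by Cre is not given in the sources used here, so UMIs from outside it need not follow the deletion. KO and WT below are therefore the labels of libraries, and each direction between genotypes rests on those labels.

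The 4 libraries held between 1406 and 3328 nuclei, of which 1098, 1415, 2619 and 1308 were CM1, with 4151418, 5799715, 7335268 and 5322066 UMIs. The library KO-Sham stood apart by a median of 2632 UMIs per CM1 nucleus, against 3749 to 4044 in the others, and by a median mitochondrial share of 8.78% of UMIs against 5.05% to 6.13%. All 8 of 8 cardiomyocyte markers were detected in CM1 of every library, and their summed level was 37575, 36282, 40111 and 36518 CPM. Genes of other cell types made up between 0.376% and 0.553% of CM1 UMIs. Only 9 barcodes occurred in more than 1 library.

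In CM1 nuclei, most of the 40 genes were lower in the MI than in the Sham library of the same genotype. Of the 40 genes, 17 were lower and 0 higher past 1.5-fold in WT, where 11.9% of all genes tested were lower and 8.08% higher. In KO, 22 were lower and 2 higher, where 10.9% of all genes were lower and 10.0% higher. The median log2 ratio of the 40 was -0.50 in WT and -0.62 in KO, against -0.067 and 0.035 over all genes. The interval lay below 0 for 33 genes and above 0 for 3 in WT, and below 0 for 31 and above 0 for 6 in KO. Here and below, the share of all genes with an interval that excludes 0 is not given, so these counts have no background. Both comparisons put 14 genes past 1.5-fold lower. Here and below, the share of all genes past 1.5-fold in both comparisons is not given either. The interval lay below 0 in both for 30 genes, whereas the intervals of 3 regulators, Esrrb, Esrrg and Ppargc1b, lay above 0 in both.

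The summed level of the 40 genes in CM1 was 12443 CPM (interval 12336 to 12551) in WT-Sham and 9088 CPM (interval 9011 to 9166) in WT-MI. It was 15530.2 CPM (interval 15440.1 to 15621) in KO-Sham and 9739 CPM (interval 9655 to 9823) in KO-MI. Both MI libraries were thus below both Sham libraries, and KO-Sham was the highest. Fabp3 alone made up 22.4%, 16.5%, 33.9% and 19.2% of these UMIs. Without Fabp3 the sum was 9652, 7586, 10264 and 7867 CPM, so the order of the libraries was kept while the gap between the Sham libraries was smaller. After each nucleus was thinned to 1000 UMIs, the median CM1 nucleus held 13, 9, 16 and 10 UMIs of the set, and 10, 7, 10 and 8 without Fabp3.

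**Figure D1:**
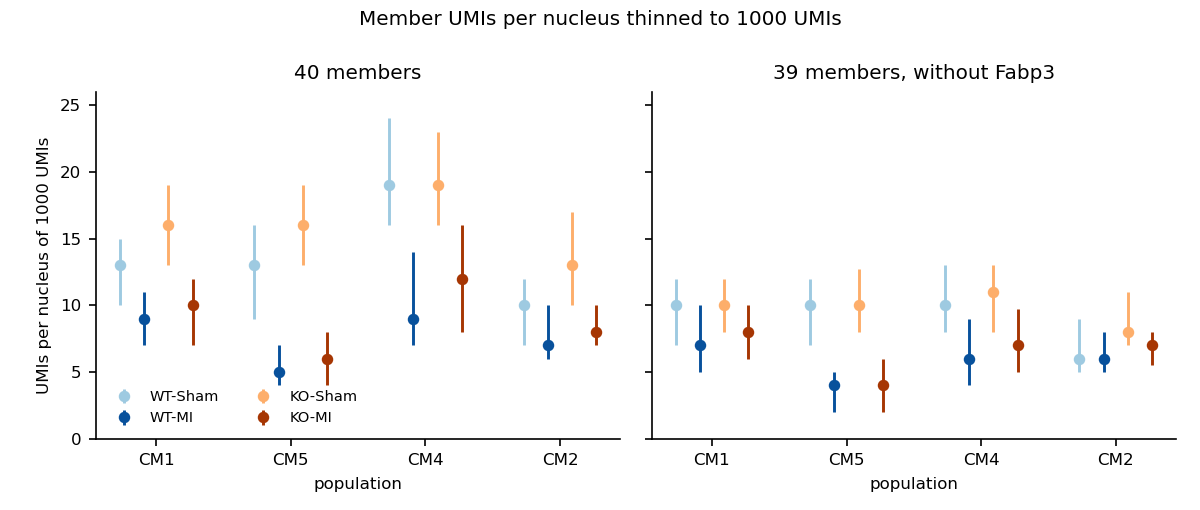
UMIs of the 40 genes per nucleus after thinning each nucleus to 1000 UMIs, by population (horizontal axis) and library (colour), for all 40 genes and without Fabp3. The vertical axis is UMIs of the set per nucleus, points are medians and bars run between the quartiles over the nuclei of 1 library. In CM1 the points lie at 13, 9, 16 and 10 UMIs in WT-Sham, WT-MI, KO-Sham and KO-MI, and in CM5 at 13, 5, 16 and 6.

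**Figure D2:**
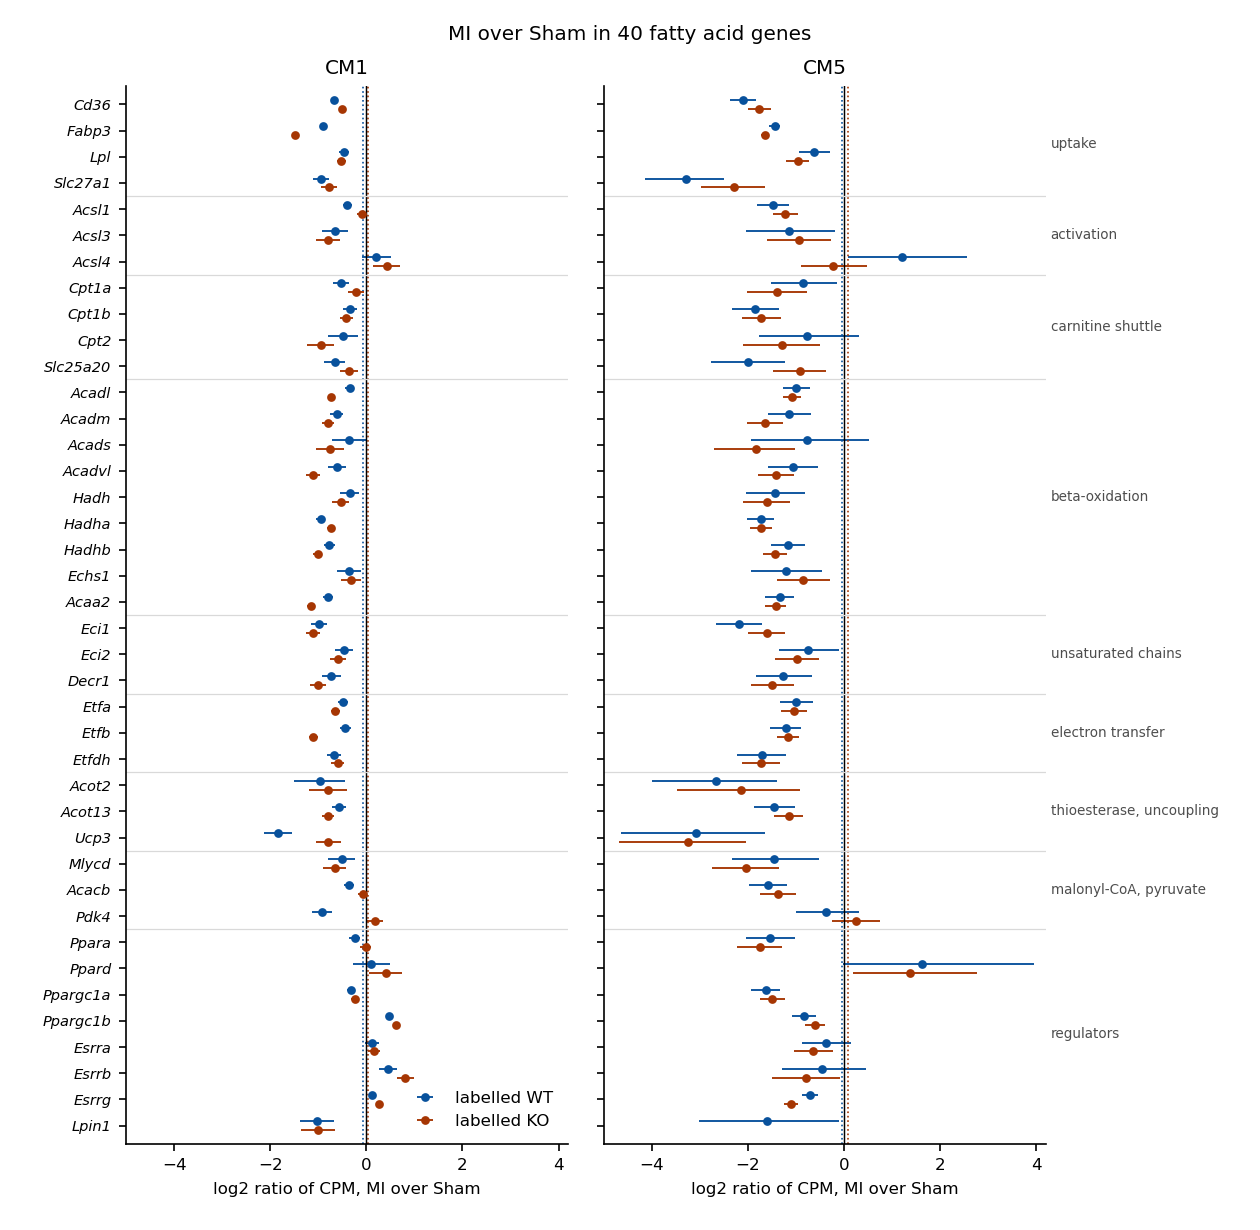
Log2 ratio of MI over Sham for the 40 genes in CM1 and in CM5, where enough UMIs were counted, in WT and in KO. Bars give the 95% counting interval, and genes are ordered by role. In CM1, points for uptake, β-oxidation and electron transfer lie below 0 in both genotypes, while Esrrb, Esrrg and Ppargc1b lie above 0 in both. In CM5, Esrrg and Ppargc1b lie below 0 in both genotypes.

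Markers of other cells differed between the same libraries. The 7 myeloid markers summed to 55.6, 126, 37.2 and 83.8 CPM in CM1, and their median log2 ratio of MI over Sham was 1.17 over the 5 that entered in WT and 1.25 over the 3 that entered in KO. The 5 red blood cell genes summed to 2545, 3829, 1891 and 2025 CPM, with medians of 0.55 and 0.21. Neither list had a marker at 0 in any library. The 7 endothelial markers had medians of 0.21 and -0.22, the 7 fibroblast markers -0.20 and -0.15, and the 4 pericyte markers -0.14 and -0.70. Of the adipocyte markers analysed here, Plin1 had at most 1 UMI and Cidec at most 3 in any library, so none entered. The 4 long RNAs kept in the nucleus had medians of 0.75 and 0.89, from 0.080 for Kcnq1ot1 to 2.79 for Meg3 in WT, and the 13 genes of the mitochondrial genome had medians of -0.18 and -0.65. The cardiomyocyte markers had medians of -0.077 and -0.28. The part of these shifts in the results of the 40 genes was not tested.

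Of the 4 uptake genes, 3 were lower past 1.5-fold in MI in WT and 2 in KO. Fabp3, which encodes the heart-type fatty acid binding protein and lies at chr4:130308595-130315463 (+) on GRCm38, was at 2791, 1503, 5266 and 1871 CPM. MI over Sham was -0.89 (-0.93 to -0.85) in WT and -1.49 (-1.52 to -1.46) in KO, a 1.86-fold and 2.81-fold lower level, and both MI libraries were below both Sham libraries. Cd36, the membrane fatty acid translocase at chr5:17781690-17888801 (-), was at 792, 497, 756 and 533 CPM, with ratios of -0.67 (-0.75 to -0.60) and -0.50 (-0.57 to -0.44), of which only the WT ratio passed 1.5-fold. The transporter and acyl-CoA synthetase Slc27a1 was at 164, 85.5, 137 and 80.4 CPM. Its ratios were -0.94 (-1.11 to -0.77) and -0.77 (-0.94 to -0.61), past 1.5-fold in both genotypes. The lipoprotein lipase gene Lpl, which releases fatty acids from circulating triglyceride, had ratios of -0.46 and -0.52 and passed in neither. Cd36 and Lpl are also known in endothelial cells, adipocytes or macrophages, whose markers are given above.

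Of the 3 activation genes, 1 was lower past 1.5-fold, in both genotypes. Acsl3, a long-chain acyl-CoA synthetase, was at 56.6, 36.0, 65.3 and 37.6 CPM and was lower in MI, by ratios of -0.65 (-0.93 to -0.38) and -0.80 (-1.04 to -0.56). Acsl1, the main synthetase of the heart, had ratios of -0.40 in WT and -0.10 in KO. Acsl4, which prefers arachidonate, stood above 0 instead, at 0.21 and 0.42. Neither of these last genes passed 1.5-fold.

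The 4 carnitine shuttle genes had ratios below 0 in both genotypes, and 1 passed 1.5-fold in each. Slc25a20, the carnitine-acylcarnitine translocase of the inner mitochondrial membrane, was at 93.0, 59.0, 89.6 and 69.7 CPM, with ratios of -0.66 (-0.87 to -0.44) and -0.36 (-0.55 to -0.18). Cpt2, which regenerates acyl-CoA inside the mitochondrion, was at 40.9, 29.1, 52.5 and 27.2 CPM, with ratios of -0.49 (-0.81 to -0.18) and -0.95 (-1.23 to -0.67). Each of these genes thus passed 1.5-fold in 1 genotype only, Slc25a20 in WT and Cpt2 in KO, and the difference between genotypes was not tested. The outer membrane step is shared by Cpt1a, the form also expressed in liver, at -0.53 and -0.22, and Cpt1b, the muscle form, at -0.34 and -0.42. Neither Cpt1 gene passed 1.5-fold.

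The spiral itself was the largest group, and its 9 genes all had ratios below 0 in both genotypes. The interval lay below 0 for 8 of 9 in WT and 9 of 9 in KO, 5 and 7 of them past 1.5-fold, and the group median was -0.61 and -0.76. The first step is catalysed by acyl-CoA dehydrogenases that differ in the chain length they prefer. Acadvl, for very long chains, was at 131, 85.5, 208 and 96.8 CPM, with ratios of -0.61 (-0.79 to -0.43) and -1.10 (-1.25 to -0.96). Acadl, for long chains, was at 424, 334, 646 and 390.3 CPM, with -0.35 (-0.44 to -0.25) and -0.73 (-0.80 to -0.65). Acadm, for medium chains, was at 212, 138, 244 and 140.2 CPM, with -0.62 (-0.76 to -0.48) and -0.80 (-0.93 to -0.68). Acadvl and Acadm passed 1.5-fold in both genotypes, and Acadl in KO. Acads, for short chains and the least sampled of them, was at 29.1, 22.8, 46.1 and 27.2 CPM, with -0.36 (-0.72 to 0.011) and -0.76 (-1.05 to -0.47). Its WT interval was the only one of the group that spanned 0.

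Hadha and Hadhb encode the subunits of the trifunctional protein, which carries out the last reactions on long chains, and they are transcribed from neighbouring positions on chr5. Hadha, at chr5:30118304-30155162 (-), was at 605, 312, 635 and 380.5 CPM, with ratios of -0.95 (-1.04 to -0.86) and -0.74 (-0.81 to -0.66). Hadhb was at 329.8, 193, 448 and 222 CPM, with -0.77 (-0.89 to -0.66) and -1.01 (-1.11 to -0.91). Both subunits passed 1.5-fold in both genotypes, with the WT fold larger for Hadha and the KO fold larger for Hadhb. Acaa2, the thiolase that releases acetyl-CoA, was at 374, 216, 605 and 271 CPM, with -0.80 (-0.91 to -0.69) and -1.16 (-1.24 to -1.07), both past 1.5-fold. Hadh and Echs1, which act on shorter chains, had ratios between -0.53 and -0.32 and passed in neither genotype.

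Of the 3 auxiliary enzymes that prepare unsaturated chains for the spiral, 2 were lower past 1.5-fold in WT and 3 in KO. Eci1, an enoyl-CoA isomerase, was at 165, 83.1, 226 and 105 CPM, with ratios of -0.99 (-1.16 to -0.82) and -1.10 (-1.24 to -0.96). Decr1, a dienoyl-CoA reductase, was at 117, 70.5, 163 and 81.4 CPM, with -0.73 (-0.92 to -0.53) and -1.01 (-1.17 to -0.85). Both passed 1.5-fold in both genotypes, and both MI libraries lay below both Sham libraries for each. Eci2, a second isomerase, was at 114, 82.4, 139.6 and 92.8 CPM, with -0.46 (-0.65 to -0.28) and -0.59 (-0.75 to -0.43), and passed only in KO.

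Electrons from the dehydrogenases pass to the flavoprotein ETF and from it to ubiquinone through ETF dehydrogenase, and 1 of these 3 genes was lower past 1.5-fold in WT and 3 in KO. Etfa was at 369.5, 265, 416 and 267 CPM, with ratios of -0.48 (-0.58 to -0.38) and -0.64 (-0.74 to -0.55). Etfb was at 265, 196, 493 and 229 CPM, with -0.44 (-0.56 to -0.32) and -1.11 (-1.20 to -1.01). Both subunits of ETF passed 1.5-fold in KO and not in WT, and Etfb was highest in KO-Sham. Etfdh was at 203, 127, 203 and 134 CPM, with -0.67 (-0.82 to -0.53) and -0.60 (-0.73 to -0.47), past 1.5-fold in both.

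Ucp3, the mitochondrial carrier known as uncoupling protein 3 and a target of PPARα in muscle, had the lowest WT ratio of the set. It lies at chr7:100472990-100486432 (+) and was at 81.9, 22.9, 56.4 and 32.7 CPM. The ratio of MI over Sham was -1.84 (-2.14 to -1.54) in WT, a 3.57-fold lower level, and -0.79 (-1.05 to -0.53) in KO, and the 4 libraries did not overlap between surgeries. The acyl-CoA thioesterases release free fatty acid and coenzyme A. Acot2, the mitochondrial long-chain form, was at 17.8, 9.14, 24.4 and 14.1 CPM, with -0.96 (-1.50 to -0.44) and -0.79 (-1.20 to -0.40). Acot13 was at 187, 127, 253 and 145 CPM, with -0.57 (-0.71 to -0.42) and -0.80 (-0.93 to -0.68). Acot13 passed 1.5-fold only in KO, and Acot2 in both.

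Genes that set the choice of fuel differed from each other. Pdk4, the kinase that turns off pyruvate dehydrogenase and so spares glucose, was at 113, 60.0, 86.2 and 97.0 CPM. Its ratio was -0.92 (-1.12 to -0.71) in WT and 0.17 (-0.00027 to 0.34) in KO, and WT-MI was the lowest of the 4 libraries. Mlycd, which removes the shuttle inhibitor malonyl-CoA, was at 54.2, 37.9, 62.0 and 39.3 CPM, with -0.51 (-0.79 to -0.24) and -0.66 (-0.90 to -0.42), the latter past 1.5-fold. Acacb, which makes malonyl-CoA at the mitochondrial membrane, had ratios of -0.36 and -0.077.

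**Figure D3:**
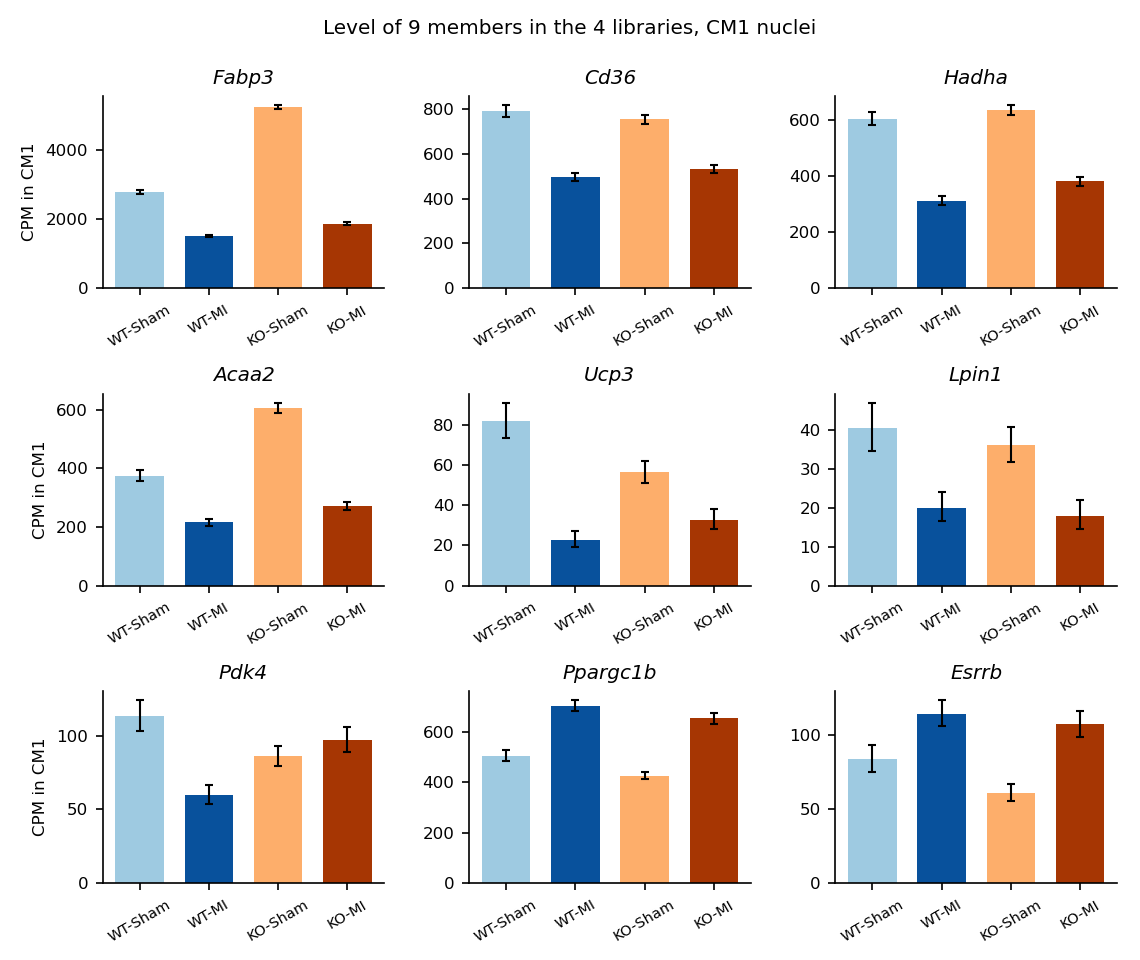
Bars give the level of 9 genes of the set in CM1 of each of the 4 libraries, in CPM on linear axes from 0 that differ between genes, with lines for the 95% counting interval. Fabp3 lay at 2791, 1503, 5266 and 1871 CPM and Ucp3 at 81.9, 22.9, 56.4 and 32.7 CPM, with both MI libraries below both Sham libraries, while Ppargc1b and Esrrb show the opposite order.

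The 8 regulators did not follow the enzymes in CM1. Their median ratio was 0.11 in WT and 0.21 in KO. All of them except Esrra span more than 50 kb, and the part of gene span in this contrast with the enzymes was not tested. Ppargc1b, which encodes the coactivator PGC-1β, was at 504, 702, 426 and 653 CPM, with ratios of 0.48 (0.40 to 0.55) and 0.62 (0.55 to 0.69). Esrrb, an estrogen-related receptor better known from stem cells, was at 84.1, 115, 61.2 and 107 CPM, with 0.45 (0.26 to 0.64) and 0.81 (0.63 to 0.99). Both genes were higher in both MI libraries than in both Sham libraries and passed 1.5-fold in KO, although Ppargc1b in KO no longer passed in 5 alternatives, at 0.58 when ratios were centred on the median gene, 0.55 with TMM, 0.56 with thinned nuclei, 0.45 over all nuclei and 0.43 in nuclei with at most 5% mitochondrial UMIs. Esrrg, the estrogen-related receptor that is abundant in heart, was at 1363, 1479, 1156 and 1382 CPM, with 0.12 (0.069 to 0.17) and 0.26 (0.21 to 0.30). Ppargc1a, which encodes PGC-1α, went the other way at 636, 509, 587 and 497 CPM, with -0.32 (-0.40 to -0.25) and -0.24 (-0.31 to -0.17). Neither of these passed 1.5-fold. Lpin1, a phosphatidate phosphatase that also acts as a coactivator with PGC-1α, was at 40.5, 20.001, 36.1 and 18.0 CPM and was the only regulator that was lower past 1.5-fold, with ratios of -1.02 (-1.37 to -0.67) and -1.002 (-1.35 to -0.66). Ppara, the receptor PPARα itself, had ratios of -0.25 and -0.016. Ppard stood at 0.10 and 0.40, and Esrra at 0.12 and 0.16, none past 1.5-fold.

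Some of the calls of MI over Sham above ended under another processing. In WT, Acadvl no longer passed 1.5-fold lower in 5 alternatives, at -0.54 when centred on the median gene, -0.54 with TMM, -0.49 with thinned nuclei, -0.42 in nuclei with at most 5% mitochondrial UMIs and -0.58 in nuclei that held few UMIs of other cell types. With centring and TMM, Acadm was at -0.55 and -0.54 and Acsl3 at -0.58 and -0.58, all just short of it. Slc25a20 was at -0.58 with TMM and -0.47 in nuclei with at most 5% mitochondrial UMIs, where Decr1 was at -0.56. In KO, those nuclei ended the calls of Cpt2 at -0.48, Acads at -0.43, Ucp3 at -0.52 and Lpin1 at -0.38. Eci2 was at -0.58 in nuclei with both labels CM1 and Etfa at -0.57 in nuclei that held few UMIs of other cell types. All of these ratios stayed below 0.

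Promoter sequences were read from RefSeq on GRCm38.p6 because most of the set was lower in MI and because Nrf1 is known to bind antioxidant response elements (ARE). Windows from 250 bases before to 50 after the start were found for 34 of the 40 genes, and both strands were searched. The ARE core TGACNNNGC was present in the windows of 2 of the 34 genes (5.88%), against 14.0% of 27025 genes. Those matches are shown with 10 bases on either side, and capitals mark the core. The Esrrg stretch at chr1:187652249-187652277 (+) has its core beginning 18 bases after the start. That start lies inside the annotated Esrrg span, which begins at chr1:187608791. The Ppard stretch at chr17:28232740-28232768 (+) has its core beginning 4 bases before the start.
Esrrg: gctgcagttcTGACCCTGCcaaaggtaac
Ppard: tgggagcgtgTGACGCCGCaggccgcggc
The estrogen-related receptor element TCAAGGTCA was in the windows of 0 of the 34 genes, against 0.466% of all genes. Its looser form TNAAGGTCA, which includes the former, was in 0 against 1.43%. The direct repeat AGGTCANAGGTCA bound by PPAR dimers was in 0 against 0.0481%. These are matches of letters in a short window.

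In CM5 nuclei, the set was lower in MI by more than in CM1. Of the 40 genes, 35 were lower past 1.5-fold in WT and 2, Acsl4 and Ppard, were higher, where 24.3% of all genes were lower and 22.7% higher. In KO, 36 of 39 were lower and 1, Ppard, was higher, against 18.9% and 25.5% of all genes. The median was -1.24 in WT and -1.39 in KO, while the median over all genes was -0.037 and 0.094. CM5 held 89, 339, 234 and 355 nuclei, so its intervals were wider than those of CM1. The 8 cardiomyocyte markers had medians of -0.77 and -0.75 in CM5, with Actn2 at 0.027, Actc1 at -0.030 and Ttn at -0.087 as the highest in WT, and sums of 38257, 26858, 40627 and 27313 CPM, and the 4 nuclear long RNAs had medians of 1.89 and 1.19. In CM5 the medians were 1.04 and 0.47 for the 4 red blood cell genes that entered and 0.55 and 0.92 for the 2 myeloid markers that did. The part of these in the result was not tested.

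The summed level of CM5 was below that of CM1 in both MI libraries. The summed level in CM5 was 12582, 5275, 15566 and 6009 CPM. Over CM1 of the same library this was a log2 ratio of 0.016 (-0.030 to 0.062) in WT-Sham and 0.0034 (-0.026 to 0.033) in KO-Sham, against -0.78 (-0.82 to -0.75) in WT-MI and -0.70 (-0.73 to -0.66) in KO-MI. Without Fabp3, CM5 was at 9135 CPM (interval 8809.8 to 9469.9) against 9652 CPM (interval 9558 to 9747) in CM1 of WT-Sham, with intervals that lay apart, and at 9976 CPM (interval 9732 to 10224) against 10264 CPM (interval 10190.5 to 10337) in KO-Sham, with intervals that overlapped. In WT-Sham, 26 of the 40 genes were lower in CM5 than in CM1. The interval lay below 0 for 7 genes and above 0 for 5. In WT-MI, 37 of 40 were lower, 33 with an interval below 0. The median of CM5 over CM1 was -0.13 in WT-Sham and -0.69 in WT-MI, against -0.026 and -0.036 over all genes. The share of all genes lower in CM5 within a library is not given here. The share of CM5 nuclei that carried the transferred label CM2 was 58.4%, 79.1%, 58.1% and 80.8%, so the nuclei labelled CM5 were not of the same make-up in Sham and MI. Most CM5 nuclei of each library thus carried the transferred label CM2, which need not mean the population labelled CM2 here. Among CM5 nuclei with that transferred label alone, the median of MI over Sham was -1.36 in WT and -1.40 in KO.

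Gene by gene, the ratio of MI over Sham was lower in CM5 than in CM1 for 37 of 40 genes in WT and 37 of 39 in KO, where 51.6% and 47.5% of all genes were. The intervals of both populations lay apart, with CM5 lower, for 20 of 40 genes in WT and 23 of 39 in KO, against 7.71% and 8.14% of all genes. Whether intervals lie apart also depends on the number of UMIs, which was not matched between the set and all genes. The nuclei differ between the populations, but the libraries are the same.

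The lowest WT ratios of the set in CM5 were those of Slc27a1, Ucp3 and Acot2. Ucp3 in CM5 was at 39.97, 4.74, 47.2 and 4.99 CPM, with ratios of -3.08 (-4.64 to -1.65) and -3.24 (-4.67 to -2.03). Slc27a1 was at 132, 13.5, 101 and 20.7 CPM, with -3.29 (-4.13 to -2.49) and -2.29 (-2.97 to -1.63). Cd36 was at 689, 161, 604 and 179 CPM, with -2.10 (-2.37 to -1.83) and -1.76 (-1.99 to -1.52). All of these were lower in both MI libraries than in both Sham libraries. Fabp3 was at 3447, 1269, 5591 and 1788 CPM, with -1.44 (-1.55 to -1.33) and -1.64 (-1.72 to -1.57), a narrower gap than that of Cd36 in WT. Acot2 was at 43.0, 6.77, 28.3 and 6.41 CPM, with -2.67 (-4.00 to -1.39) and -2.14 (-3.48 to -0.91), on few UMIs in the MI libraries.

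Genes of the carnitine shuttle, the spiral and electron transfer were lower as well. Cpt1b was at 206, 57.5, 206 and 62.7 CPM, with -1.84 (-2.32 to -1.36) and -1.72 (-2.12 to -1.32), whereas in CM1 it had not passed 1.5-fold. Hadha was at 578, 174, 634 and 193 CPM, with -1.73 (-2.01 to -1.45) and -1.72 (-1.94 to -1.49). Eci1 was at 234, 51.4, 211 and 69.1 CPM, with -2.18 (-2.66 to -1.71) and -1.61 (-2.002 to -1.22). All 9 spiral genes, 3 auxiliary genes, 3 electron transfer genes and 4 carnitine shuttle genes were lower past 1.5-fold in both genotypes. Etfdh, for example, was at 175, 53.5, 219 and 66.2 CPM.

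Regulators in CM5 differed from those in CM1, with 5 of 8 lower and 1 higher past 1.5-fold in WT and 6 of 7 lower and 1 higher in KO. Ppara was at 166, 57.5, 156 and 46.3 CPM, with ratios of -1.53 (-2.04 to -1.01) and -1.75 (-2.23 to -1.29). Ppargc1a was at 479.7, 156, 455 and 162 CPM, with -1.62 (-1.92 to -1.32) and -1.49 (-1.74 to -1.23). For both, the MI libraries held less than either Sham library. Esrrg was at 1239, 756, 1226 and 571 CPM, with -0.71 (-0.88 to -0.54) and -1.10 (-1.25 to -0.96). Ppargc1b was at 563, 315, 505 and 335 CPM, with -0.84 (-1.08 to -0.58) and -0.59 (-0.80 to -0.38), opposite in direction to CM1. Pdk4 was at 83.0, 64.3, 75.5 and 89.7 CPM, with -0.37 (-0.998 to 0.31) and 0.25 (-0.24 to 0.76), and neither interval excluded 0.

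CM4 held 192, 192, 351 and 118 nuclei, and more of the set was lower than higher in its MI libraries. In WT, 22 of 37 genes were lower past 1.5-fold and 2 higher, Acsl4 and Esrrg, where 16.0% of all genes were lower and 28.5% higher. In KO, 18 of 40 were lower and 1, Ppard, higher, against 19.7% and 17.7%. The median was -0.71 in WT and -0.57 in KO, beside 0.16 and 0.00037 over all genes, so relative to the median gene the WT value was -0.87. CM4 of WT-Sham had a median mitochondrial share of 14.6% and WT-MI one of 10.8%, and genes of other cell types made up 1.73%, 1.27%, 1.18% and 0.764% of its UMIs. The transferred label CM4 was carried by 83.3%, 79.2%, 66.7% and 89.8% of CM4 nuclei, so their make-up was not the same between libraries. The part of these in the result was not tested.

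Fabp3 in CM4 was at 9889, 3593, 8716 and 5869 CPM, with ratios of MI over Sham of -1.46 (-1.55 to -1.37) and -0.57 (-0.64 to -0.50). The spiral genes Acadvl and Acaa2 were at 465, 187, 342 and 268 CPM and at 1057, 460.4, 928 and 500.5 CPM, with ratios of -1.31 (-1.71 to -0.92) and -1.20 (-1.45 to -0.95) in WT and -0.35 (-0.72 to -0.0040) and -0.89 (-1.14 to -0.65) in KO. Of the 9 spiral genes, 8 were lower past 1.5-fold in WT and 1, Acaa2, in KO, and of the 3 electron transfer and 3 auxiliary genes, 2 and 2 were lower in WT and 0 and 0 in KO. The difference between genotypes was not tested. For Fabp3, Acadvl and Acaa2, WT-Sham was the highest library. Of the regulators that entered, 0 of 5 were lower and 1, Esrrg, higher in WT, and 6 of 8 lower and 1, Ppard, higher in KO. Esrrg was at 372, 560.1, 680.4 and 483 CPM, with 0.59 (0.29 to 0.90) in WT and -0.49 (-0.76 to -0.24) in KO. Ppargc1b was at 182, 263, 272 and 175 CPM, with 0.53 (0.092 to 0.98) and -0.64 (-1.08 to -0.22). KO-Sham was the highest library for both, and the lowest was WT-Sham for Esrrg and KO-MI for Ppargc1b. In CM2, which held 27, 57, 124 and 67 nuclei, the median ratio was -0.45 over 30 genes in WT and -0.32 over 37 in KO. The median over all genes in CM2 is not given here. Genes of other cell types made up 0.305%, 1.99%, 0.287% and 0.359% of CM2 UMIs, and their part was not tested.

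The comparison of genotypes asks whether the genes differ when Nrf1 is labelled as deleted, with the limit on Nfe2l1 given above, and it shares its libraries with the comparison of surgeries, KO-Sham included. In Sham CM1, 6 of 40 genes were higher past 1.5-fold in KO, where 6.21% of all genes were, and 0 were lower, where 4.09% were. Centring on the median gene changes those shares to 9.63% and 2.04% of all genes, gives 7 and 0 of the 40, and turns Sham ratios between 0 and -0.12 positive. The 6 genes were Fabp3, Acadl, Acads, Acadvl, Acaa2 and Etfb. In nuclei with at most 5% mitochondrial UMIs, Acadl at 0.43 and Acadvl at 0.46 no longer passed and Hadhb did, and in nuclei that held few UMIs of other cell types Acads, at 0.57, did not pass. The median of the 40 was 0.11 against -0.12 over all genes, with 18 intervals above 0 and 13 below. Over the processing alternatives this median ran from 0.035 with thinned nuclei to 0.23 with TMM scaling, and over all nuclei only Fabp3 and Etfb passed 1.5-fold. In MI CM1, 2 genes, Acot2 and Pdk4, were higher and 0 lower, where 2.33% of all genes were higher and 1.81% lower. The median was 0.12 against 0.021, with 16 intervals above 0 and 3 below.

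In Sham, Fabp3 had the highest ratio, with 5266 CPM in KO-Sham against 2791 in WT-Sham, a ratio of 0.92 (0.89 to 0.95). The ETF subunit Etfb had a ratio of 0.89 (0.80 to 0.99), whose interval overlapped that of Fabp3, and the thiolase Acaa2 0.69 (0.61 to 0.78). Among the dehydrogenases the ratio was 0.67 (0.53 to 0.81) for Acadvl, 0.66 (0.36 to 0.97) for Acads and 0.61 (0.53 to 0.69) for Acadl. These are all enzymes or carriers. They were also lower in KO-MI than in KO-Sham, but they were picked for a high level in KO-Sham, so this is not an independent result. In the opposite direction, without passing 1.5-fold, stood Ucp3 at -0.54 (-0.75 to -0.33), Esrrb at -0.46 (-0.66 to -0.25) and Pdk4 at -0.39 (-0.57 to -0.22). Cpt1a, Ppara and Acacb were at -0.36, -0.38 and -0.38.

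In MI, the thioesterase Acot2 was at 14.1 CPM in KO-MI against 9.14 in WT-MI, with a ratio of 0.62 (0.10 to 1.16). Pdk4 was at 97.0 and 60.0 CPM, a ratio of 0.69 (0.49 to 0.89). The Acot2 ratio was 0.40 in nuclei with at most 5% mitochondrial UMIs, short of 1.5-fold, and Acot2 had too few UMIs to enter with thinned nuclei. Ucp3 had a ratio of 0.51 (0.18 to 0.85), so that both Ucp3 and Pdk4 were lower in KO-Sham than in WT-Sham and higher in KO-MI than in WT-MI. Fabp3 had 0.32 (0.27 to 0.36). The intervals of 10 genes lay above 0 in both surgeries and those of 3, Esrrg, Ppara and Ppargc1b, below 0 in both.

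**Figure D4:**
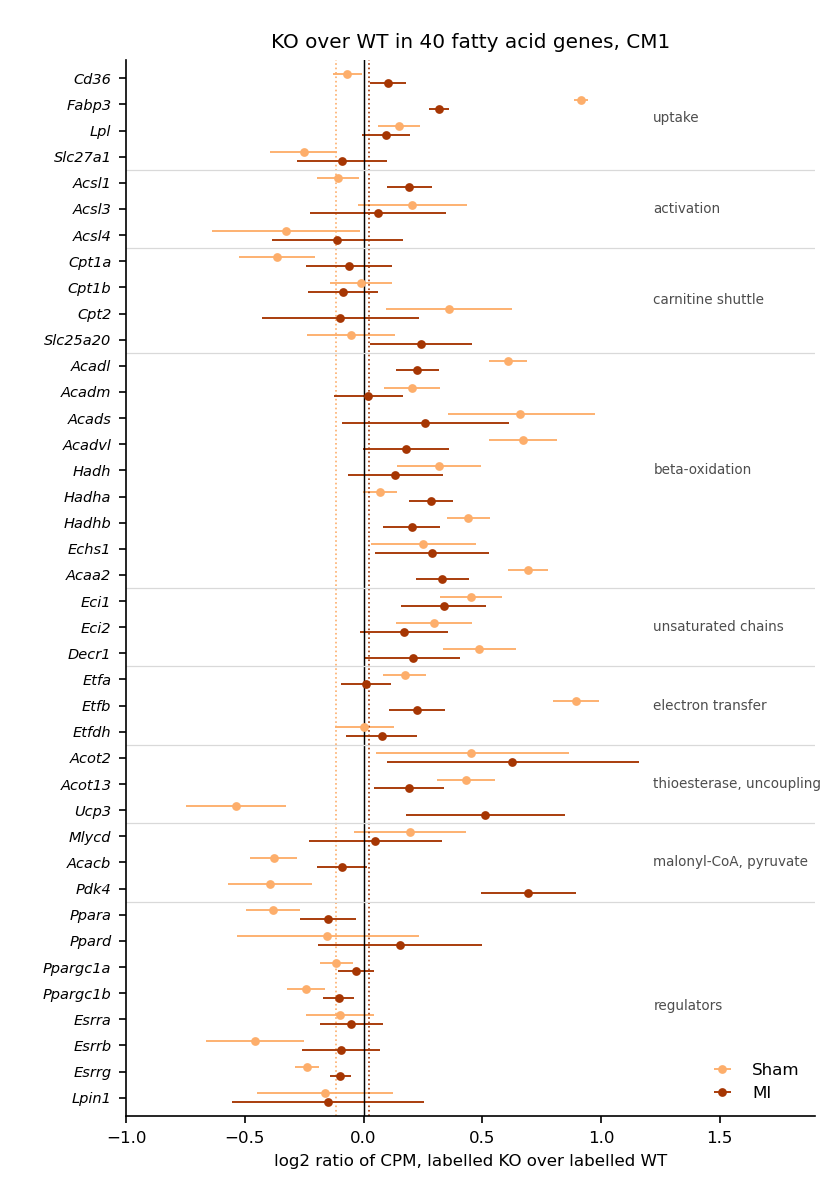
Log2 ratio of KO over WT for each of the 40 genes in CM1, in Sham and in MI libraries, with bars for the 95% counting interval. In Sham, 6 genes lie past 1.5-fold above 0 and 0 below, and Ucp3 and Pdk4 lie below 0 in Sham and above 0 in MI.

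The Sham difference between genotypes varied with gene length in the set as over all genes. By span from GENCODE M21, 12 genes were up to 15 kb, 15 were between 15 and 50 kb and 13 were longer. Their median KO over WT in Sham was 0.44, 0.21 and -0.24, beside 0.12, -0.11 and -0.22 over all genes of the same span. For MI over Sham in KO the medians were -0.79, -0.74 and -0.077, beside -0.14, 0.065 and 0.12. For MI over Sham in WT they were -0.59, -0.65 and -0.32, beside -0.099, -0.056 and -0.057. Across the 40 genes, which share their libraries, Spearman's rho of span and KO over WT was -0.53 in Sham and -0.59 in MI. For span and MI over Sham, rho was 0.39 in WT and 0.52 in KO. KO-Sham also had the higher mitochondrial share given above, and the 13 genes of the mitochondrial genome had a median of 0.46 in KO over WT in Sham and -0.060 in MI. The part of span and of mitochondrial RNA in the values of genotype and of surgery was not tested.

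**Figure D5:**
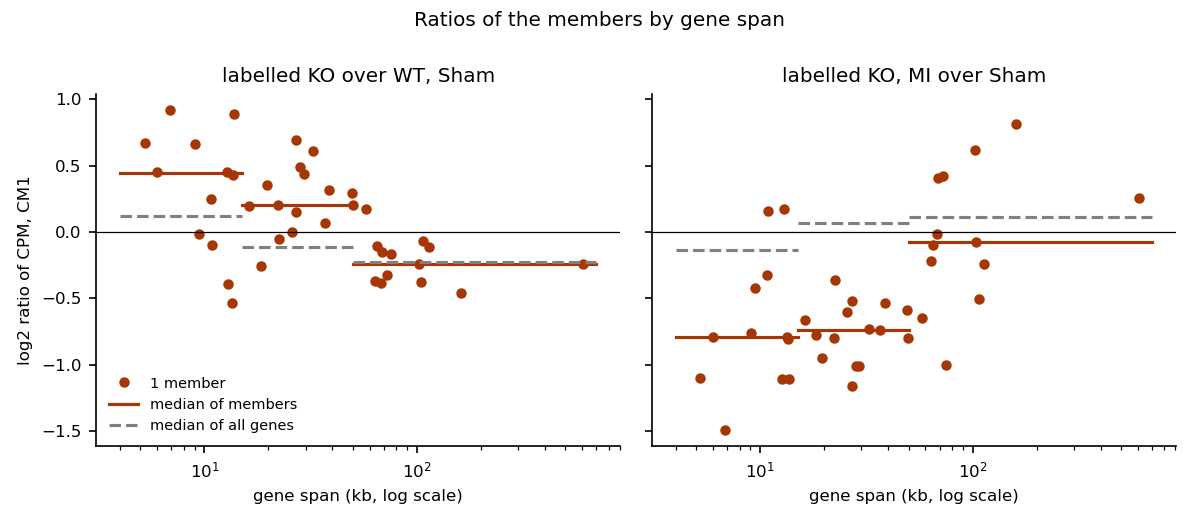
Log2 ratio in CM1 of each of the 40 genes against the span of the gene in kb on a log axis, for KO over WT in Sham and for MI over Sham in KO, with solid lines for the median of the set and dashed lines for the median of all genes in each of 3 span classes. For KO over WT in Sham, the 12 genes of up to 15 kb had a median of 0.44 and the 13 over 50 kb one of -0.24.

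Other cell lists also differed between genotypes in CM1. For KO over WT, the medians in Sham and MI were -0.42 and -0.69 for myeloid, -0.46 and -0.87 for red blood cell, 0.66 and -0.011 for endothelial, -0.16 and 0.054 for fibroblast and 0.21 and 0.020 for pericyte genes. They were 0.19 and 0.16 for the cardiomyocyte markers and -0.25 and 0.047 for the nuclear long RNAs. Of the 5 atrial genes, 3 entered, with medians of 0.73 and 0.91 for KO over WT and 0.39 and 0.73 for MI over Sham in WT and KO. Their part was not tested.

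In CM5, the genotypes differed in few of the genes. In Sham, 3 of 39 were higher in KO past 1.5-fold (Fabp3, Acsl4 and Acads) and 1, Acot2, lower, where 12.0% of all genes were higher and 13.8% lower. In MI, 2 of 37 were higher (Slc27a1 and Slc25a20) and 1, Cpt1a, lower, against 9.70% and 4.82%. The medians of 0.15 and 0.12 stood beside -0.073 and 0.074 over all genes. Fabp3 was higher in KO in both, by 0.70 (0.60 to 0.80) and 0.49 (0.41 to 0.58). In CM4, 6 of 39 genes were higher and 3 lower in Sham, against 19.9% and 10.8% of all genes, and 4 of 35 were higher and 3 lower in MI, against 12.3% and 19.3%. Fabp3 in CM4 was -0.18 (-0.24 to -0.12) in Sham and 0.71 (0.61 to 0.80) in MI. In CM4 of Sham, the higher genes were Slc27a1, Acsl4, Ppara, Esrrb, Esrrg and Lpin1, with Ppara at 1.404 (0.66 to 2.22) and Esrrg at 0.87 (0.60 to 1.15). The lower genes were the dehydrogenases Acadm at -0.61 (-0.90 to -0.32) and Acads at -1.20 (-1.91 to -0.50) and the thioesterase Acot2 at -0.79 (-1.94 to 0.38). The transferred label CM4 was carried by 83.3% of CM4 nuclei in WT-Sham and 66.7% in KO-Sham, and the part of this was not tested. In CM4 of MI, Fabp3, Hadh, Eci2 and Etfb were higher and Acsl3, Acsl4 and Ppargc1b lower. In CM2 the medians were 0.20 in Sham over 34 genes and 0.19 in MI over 33, again without the median over all genes.

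A further list of 101 genes of fatty acid, ketone and lipid droplet metabolism was read for comparison, of which 91 entered in CM1. In MI over Sham, 10 were lower and 4 higher in WT, and 14 lower and 3 higher in KO, with medians of -0.21 and -0.10. Over all genes the shares were 11.9% lower and 8.08% higher in WT and 10.9% and 10.0% in KO, so the share of lower genes on the list in WT was near the background. Among the 3 lowest were the peroxisomal racemase gene Amacr at -1.12 and the receptor Rxrb at -1.08 in WT, and Mcee of propionyl-CoA breakdown at -1.31 and Ech1, an enoyl-CoA isomerase, at -1.23 in KO. The highest in both was Pprc1, a coactivator related to PGC-1, at 10.6, 27.6, 10.2 and 29.9 CPM and ratios of 1.38 and 1.55. Oxct1, the enzyme that starts ketone body use, was at 139, 272, 143 and 266 CPM and ratios of 0.97 and 0.90. Pprc1 and Oxct1 were thus higher in both MI libraries than in both Sham libraries. The other gene among the 3 highest was Abhd5 in WT at 0.72, a coactivator of the lipase ATGL, and Elovl6 in KO at 1.24, a fatty acid elongase.

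In KO over WT, 10 of the 91 were higher and 0 lower in Sham, and 2 higher and 0 lower in MI, with medians of -0.070 and 0.028, where 6.21% and 4.09% of all genes in Sham and 2.33% and 1.81% in MI were higher and lower. The highest in Sham were Gpihbp1, which anchors lipoprotein lipase on capillary endothelium, at 1.07, the acyl-CoA binding protein gene Dbi at 0.98 and Fabp4, the adipocyte and endothelial binding protein, at 0.93. Gpihbp1 and Fabp4 are also known in endothelial cells, and Fabp4 is on the endothelial list given above. The lowest in Sham were Acadsb at -0.55, Plin4 at -0.55 and Rxra at -0.52, none past 1.5-fold. In MI the 3 highest included Scd2 at 0.68 and Rxrb at 0.56, and the lowest Scp2 at -0.48, Fasn at -0.46 and Mlxipl at -0.29. In CM5 in MI over Sham, 33 of 77 were lower and 14 higher in WT, against 24.3% and 22.7% of all genes, and 27 of 82 lower and 14 higher in KO, against 18.9% and 25.5%. In KO over WT, 9 of 61 were lower and 8 higher in Sham, against 13.8% and 12.0%, and 4 of 82 lower and 12 higher in MI, against 4.82% and 9.70%.

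Strand use in the counting is not given in the sources used here, and 19 of the 40 genes overlap another annotated gene, so their counts are uncertain. These are Fabp3, Acsl1, Acsl3, Cpt1b, Acadl, Acadvl, Hadha, Hadhb, Echs1, Eci2, Decr1, Etfb, Etfdh, Ucp3, Acacb, Ppargc1a, Ppargc1b, Esrra and Esrrg.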

How the data were processed

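Single-nucleus libraries of 4 groups, 1 library each, were grouped by their titles. The authors used Cell Ranger, whose version is not given in the sources used here, against a pre-mRNA reference of mm10/GRCm38, removed doublets called by Scrublet, filtered nuclei on detected genes and kept cardiomyocyte clusters. The labels and the methods name different versions of the 10x Genomics kit, and the strain field of the labels differs between samples in its last number. They deposited raw UMI counts of 22574 genes in 8585 nuclei, with a population label and the percent of mitochondrial UMIs per nucleus as computed by the authors with Seurat. Column sums equalled the deposited totals in 100% of nuclei, and 11 deposited columns per nucleus were not used. No doublet caller was run again.

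UMIs were summed per library and population and divided by the total to give CPM. Exact 95% intervals (Poisson for CPM, conditional binomial for ratios) cover counting error only. Ratios entered medians and counts from 50 UMIs over both sums in CM1 and 20 elsewhere, with a floor of 3 UMIs for a gene at 0 in 1 library. Total UMIs per library in CM1 ran from 4151418 to 7335268. Named in full were members past 1.5-fold in CM1 in any comparison and the 5 with the most UMIs (29 in all), with the other 11 given by their values in brief, and the 3 highest and 3 lowest genes of the further list, of which 1 gene is not reported here by name. The members and all lists (the further list, and cardiomyocyte, atrial, endothelial, fibroblast, myeloid, red blood cell, adipocyte, pericyte, nuclear long RNA and mitochondrial genome lists) were chosen with earlier results of these data known. Alternatives were centring on the median gene, TMM factors, thinning to 1000 UMIs, a minimum of 20 UMIs, nuclei with both labels CM1, all nuclei, nuclei with at most 5% mitochondrial UMIs and nuclei with a low share of other cell types. Restricting CM5 by transferred label or by those nucleus filters, and the motif TNAAGGTCA, were added after seeing the data. Gene positions are from GENCODE M21 on GRCm38, which held 22122 of 22574 symbols (98.0%). Python 3.11.15, numpy 2.4.6, pandas 2.3.3, scipy 1.17.1, matplotlib 3.10.9, R 4.3.3 and edgeR 4.0.16 (TMM factors only) were used, and the steps were tested on simulated data.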

Additional observations from a re-analysis of the deposited data

Results flagged for a closer look

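Several genes had counting intervals on opposite sides of 0 in parallel comparisons of these libraries, and none of these differences was tested, since each group had 1 library. In CM1, the log2 ratio of KO over WT in Sham and in MI was -0.54 and 0.51, a difference of 1.05, for Ucp3, and -0.39 and 0.69, a difference of 1.09, for Pdk4. The values were -0.11 and 0.19, a difference of 0.30, for Acsl1 and -0.068 and 0.10, a difference of 0.17, for Cd36. After centring on the median gene, the Sham values of Acsl1 and Cd36 became 0.011 and 0.050, no longer below 0, while those of Ucp3 and Pdk4 were -0.42 and -0.28.

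In CM4, the log2 ratio of KO over WT in Sham and in MI was -0.18 and 0.71, a difference of 0.89, for Fabp3. It was -0.43 and 0.48, a difference of 0.91, for Lpl and -0.44 and 0.51, a difference of 0.96, for Acadvl. For Hadhb it was -0.27 and 0.36, a difference of 0.63, and for Etfb -0.26 and 0.61, a difference of 0.87. Ppargc1b went the other way, with 0.58 and -0.59, a difference of -1.17. The ratio of MI over Sham in WT and in KO was 0.53 and -0.64, a difference of -1.17, for Ppargc1b and 0.59 and -0.49, a difference of -1.09, for Esrrg. The difference of -1.17 for Ppargc1b is the same in both comparisons because both use the same 4 sums, so it is not a second observation. Each of these CM4 ratios keeps its sign after centring. For Ppargc1b in MI over Sham of WT, the centred value was 0.38 and its interval then included 0. Every CM4 value shares the same 4 sums, of which WT-Sham and WT-MI held 192 nuclei each and KO-MI 118. The share of CM4 nuclei with the transferred label CM4 was lowest in KO-Sham, at 66.7%, and highest in KO-MI, at 89.8%. Its part in these values was not tested.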

How the results depend on the processing

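No median of the set and no gene past 1.5-fold in CM1 reversed its direction under the alternatives run, whereas the Sham ratios of KO over WT of Cd36 and Acsl1, both short of 1.5-fold, turned positive on centring. In CM1, centring on the median gene and TMM scaling each left 1 gene (Esrrb) higher in MI over Sham of KO and gave a median of 0.23 in KO over WT of Sham. Over all nuclei, the median of MI over Sham in KO was -0.74, 1 gene (Esrrb) was higher there, and 2 (Fabp3 and Etfb) were higher in KO over WT of Sham. In nuclei with at most 5% mitochondrial UMIs, 1 gene (Acsl4) was higher in MI over Sham of WT, the median in KO was -0.50, and 2 genes (Cpt1a and Ucp3) were lower in KO over WT of Sham, with 337, 678, 131 and 644 nuclei left. The cause of these changes was not tested. The number of genes lower in MI over Sham of CM1 ran from 13 (TMM) to 25 (all nuclei) in WT and from 18 (at most 5% mitochondrial UMIs) to 25 (all nuclei) in KO. In CM5 the median ran from -1.20 to -1.36 in WT and from -1.09 to -1.48 in KO, with 25 to 35 and 28 to 36 genes lower. These counts are over the genes that entered under each alternative. In CM5, at most 5% mitochondrial UMIs left 29, 171, 16 and 157 nuclei. A low share of other cell types left 46, 114, 155 and 194, so these values rest on few Sham nuclei of WT and, for the former, of KO. Centring on the median gene subtracts -0.12 from every KO over WT value of Sham CM1, which shifts the split of all genes past 1.5-fold as given in the text. No paired analysis was possible because each group had 1 library and no result comes from a test, and for the same reason no replicate could be left out. Depth limits the genes with few UMIs, such as Acot2 and Ppard, and the populations CM4 and CM5, where up to 5 of the 40 genes had too few UMIs to enter.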
